A study of Mus musculus with 24 samples.

Results

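5 genes of fatty acid oxidation and its control were followed in liver RNA of alcohol-fed mice: Cpt1a, Cpt2, Hadha, Ppargc1a and Acot3. They were chosen by gene symbol, are 5 of the 2372 genes in the table, and were all among the 2299 genes with enough signal to be tested. The study asks how KDM5 histone demethylases act in alcohol-associated liver disease in each sex. RNA came from whole liver of 24 mice (12 females and 12 males), and every mouse had spent 3 weeks on Lieber-DeCarli alcohol feeding. Each mouse received 2 injections of adeno-associated virus (AAV) vectors that carry short hairpin RNAs. The groups, each with 3 mice of either sex, were AAV-shKdm5b with AAV-shKdm5c followed by AAV-shAhR (Kdm5 and AhR vectors), AAV-shKdm5b with AAV-shKdm5c followed by AAV-shControl (Kdm5 vectors), AAV-shControl followed by AAV-shAhR (AhR vector), and AAV-shControl at both injections (control vectors). Since all mice had alcohol, no effect of alcohol itself is measured here. The sources used here do not give strain, age, vector promoter or collection time.

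The liver burns long-chain fatty acids in the mitochondria, above all in fasting. CPT1A, on the outer mitochondrial membrane, joins the fatty acid to carnitine in the step that limits the rate of entry, and CPT2, on the inner membrane, returns it to coenzyme A. HADHA is the alpha subunit of the mitochondrial trifunctional protein, which carries out the later steps of beta-oxidation on long chains. PGC-1 alpha, the product of Ppargc1a, is a coactivator that raises transcription of oxidative and gluconeogenic genes. ACOT3 is a peroxisomal thioesterase in the mouse that splits acyl-CoA into free fatty acid and coenzyme A. PPAR alpha is the nuclear receptor that fatty acids activate in hepatocytes, and Cpt1a, Cpt2, Hadha and Acot3 are known PPAR alpha targets in mouse liver.

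Promoter windows are shown for the 3 genes that passed a test against control vectors within a sex and for Acot3, which separated the sexes, so that their letters can be compared. The windows are from RefSeq on build GRCm38.p6, each with 300 bases on the gene's own strand, from 250 before the annotated start. Capitals mark hits on either strand of AGGTCA, the hexamer that PPAR alpha and its partner bind in pairs, and of the GC box GGGCGG. A hit on the other strand appears as its reverse complement. The windows are chr19:3323051-3323350 (plus strand) for Cpt1a, chr4:107923540-107923839 (minus strand) for Cpt2, chr5:30154931-30155230 (minus strand) for Hadha and chr12:84051894-84052193 (plus strand) for Acot3. That of Cpt1a starts inside the annotated gene, chr19:3322326-3385735.
Cpt1a: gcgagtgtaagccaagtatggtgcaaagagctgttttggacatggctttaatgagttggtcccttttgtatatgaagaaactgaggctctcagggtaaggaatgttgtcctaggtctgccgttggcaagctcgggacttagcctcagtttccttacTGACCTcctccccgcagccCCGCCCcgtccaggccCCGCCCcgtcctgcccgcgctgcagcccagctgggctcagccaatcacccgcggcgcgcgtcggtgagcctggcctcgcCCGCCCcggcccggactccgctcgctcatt
Cpt2: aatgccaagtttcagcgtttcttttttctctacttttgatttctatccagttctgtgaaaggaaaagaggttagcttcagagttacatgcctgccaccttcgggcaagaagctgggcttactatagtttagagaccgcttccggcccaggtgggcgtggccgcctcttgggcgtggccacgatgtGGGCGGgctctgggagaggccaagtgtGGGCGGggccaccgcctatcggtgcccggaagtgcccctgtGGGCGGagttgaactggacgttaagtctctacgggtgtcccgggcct
Hadha: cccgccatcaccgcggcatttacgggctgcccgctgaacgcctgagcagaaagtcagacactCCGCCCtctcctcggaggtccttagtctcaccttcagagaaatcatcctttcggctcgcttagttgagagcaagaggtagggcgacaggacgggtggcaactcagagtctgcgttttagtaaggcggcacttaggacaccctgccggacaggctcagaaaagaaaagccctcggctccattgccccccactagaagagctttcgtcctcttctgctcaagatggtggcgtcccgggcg
Acot3: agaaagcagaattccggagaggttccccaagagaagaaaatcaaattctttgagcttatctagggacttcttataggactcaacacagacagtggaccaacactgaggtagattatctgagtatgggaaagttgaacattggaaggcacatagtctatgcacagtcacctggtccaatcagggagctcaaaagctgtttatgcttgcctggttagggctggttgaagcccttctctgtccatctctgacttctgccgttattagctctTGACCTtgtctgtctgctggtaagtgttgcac
The hexamer was found once in the Cpt1a window and once in the Acot3 window, and 16.3% of 32851 RefSeq promoter windows hold it. Cpt1a and Cpt2 have 3 GC boxes each and Hadha has 1, a motif that 35.7% of all windows hold, and 53.8% of the windows of genes in the table. The direct repeat of the hexamer with 1 base between its copies, the DR1 element, was in none of the 5 members' windows and in 0.0396% of all windows. TGACGTCA (1.79% of windows), CACGTG (7.15%) and TTATGNAA (3.38%) were not found in them either. The window of Ppargc1a, chr5:51567676-51567975 (minus strand), held none of these motifs. It lies inside the annotated gene, chr5:51454249-52115853, far from its outermost start. A hit describes letters only.

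Levels are given as FPKM, a fragment count divided by gene length and library size, which allows levels of different genes to be compared per length. Hadha, Cpt1a and Cpt2 were abundant, with medians over the 12 females of 148.8, 147.7 and 105.6 FPKM and over the 12 males of 141.5, 149.3 and 108.2 FPKM. Acot3 had a median of 35.6 FPKM in females and 8.37 FPKM in males. Ppargc1a was the lowest, with a median of 2.46 FPKM in females and 2.26 FPKM in males. Hadha varied least within a group, with a coefficient of variation between 2.71% and 12% over the 8 groups. Ppargc1a (10.3% to 55.6%) and Acot3 (14.3% to 58.2%) varied most.

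**Figure D1:**
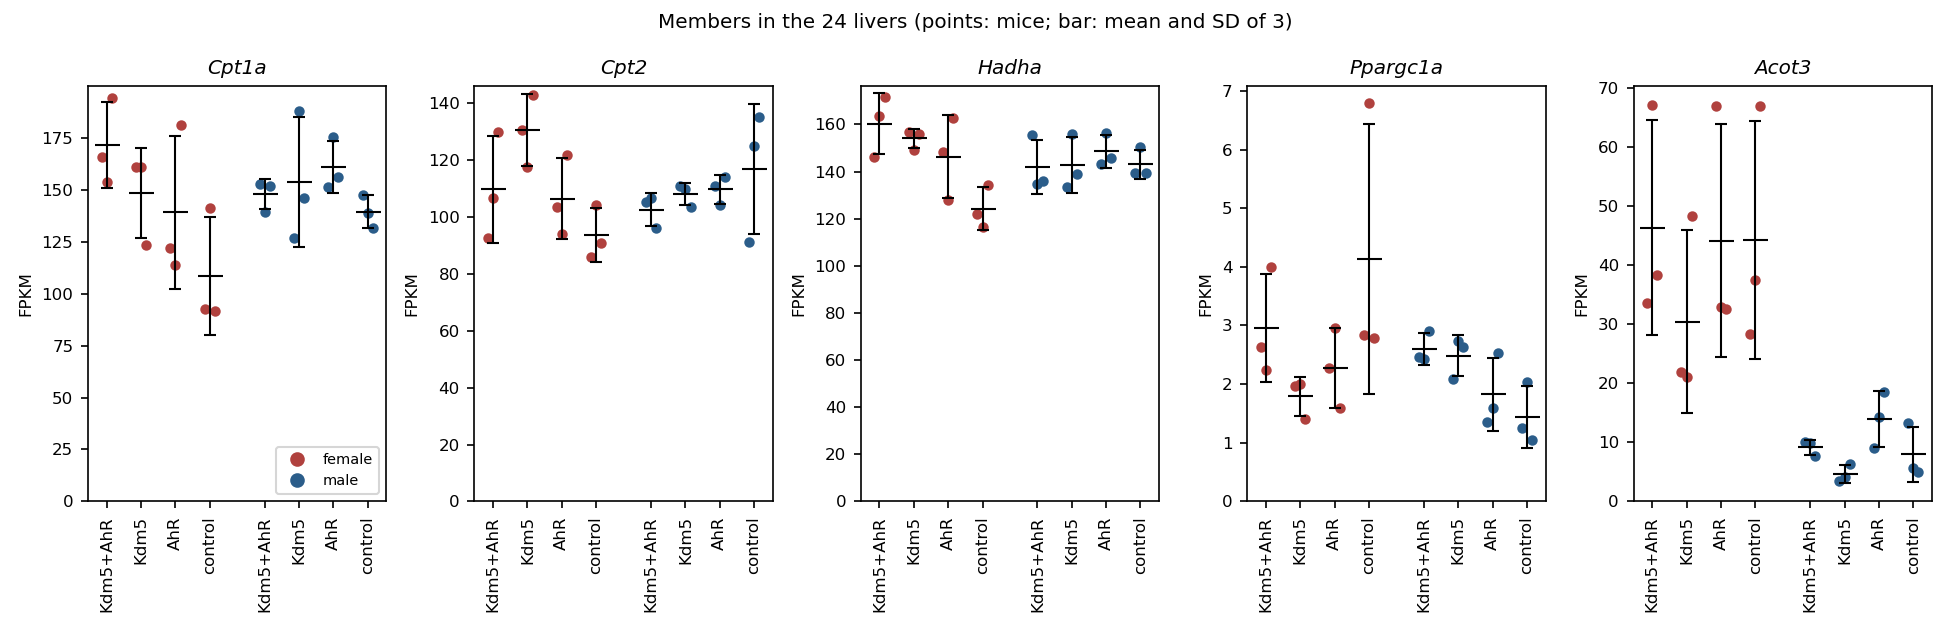
FPKM of the 5 genes in each of the 24 livers (points), with the mean and SD of 3 mice per group; females are red and males blue, and each panel has its own axis from 0. Acot3 lies between 21.1 and 67.1 FPKM in females and between 3.48 and 18.6 FPKM in males, while the lowest Hadha mean, 124 FPKM, is that of females with control vectors.

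Ordered by their means, the groups ran into each other for most genes. Of neighbours in the order, the ranges of 3 mice were apart only for Hadha between the group ranked next to last and the lowest, and for Acot3 between the lowest female and the highest male group. For Hadha these are males with Kdm5 and AhR vectors (134.6 to 155.3 FPKM) and females with control vectors (116.6 to 134.3 FPKM). For Acot3 they are females with Kdm5 vectors (21.1 to 48.3 FPKM) and males with the AhR vector (9.07 to 18.6 FPKM). Cpt1a was highest in females with Kdm5 and AhR vectors (171 ± 20.7 FPKM, SD, n = 3) and lowest in females with control vectors (108.5 ± 28.5 FPKM, n = 3). Cpt2 was highest in females with Kdm5 vectors (130.5 ± 12.7 FPKM) and lowest in females with control vectors (93.8 ± 9.51 FPKM).

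A few facts of the whole table bear on these genes. Read depth is unknown. Of the hairpin targets, Kdm5b and Ahr were not analysed here. Kdm5c had 9.63 ± 0.503 FPKM in females with Kdm5 vectors and 10.3 ± 0.906 FPKM in females with control vectors (log2 fold change -0.09, adjusted p = 0.66), so no fall of this target was detected in females. In males it had 5.14 ± 0.661 FPKM with Kdm5 vectors and 6.80 ± 0.41 FPKM with control vectors (log2 fold change -0.38, adjusted p = 0.139). Kdm5c fell where Kdm5 vectors were added to the AhR vector in males, to 5.11 ± 0.25 FPKM with both against 7.47 ± 0.483 FPKM with the AhR vector (-0.51, adjusted p = 0.0124). Of 8 hepatocyte markers, 5 were in the table, and their summed level was between 14445 and 22277 FPKM in every liver. Myoglobin (Mb), a muscle gene, was listed at 0 in all groups but males with control vectors (0.62 to 2.29 FPKM). The FPKM of the table sum to between 281871 and 326460 in females and between 380206 and 429780 in males. In bulk liver, fewer cells of a type and less RNA per cell cannot be told apart.

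With Kdm5 vectors, Cpt2 and Hadha rose in females by a factor of 1.39 and 1.24 against control vectors. Both passed the threshold of 0.05 on the Benjamini-Hochberg adjusted p from limma, taken over the 2299 genes. They are 2 of the 5 genes, and 6.87% of all genes tested were called in this comparison. Cpt2 had 130.7, 117.7 and 143.0 FPKM in the females with Kdm5 vectors, against 85.9, 104.3 and 91.0 FPKM in those with control vectors. Every female with Kdm5 vectors was above every control female. The log2 fold change of Cpt2 was 0.47 ± 0.14 (standard error), with a 95% interval of 0.19 to 0.76 and an adjusted p of 0.0389. Hadha had 156.9, 149.3 and 156.1 FPKM in the females with Kdm5 vectors, against 121.8, 116.6 and 134.3 FPKM in those with control vectors. These ranges were also apart. Its log2 fold change was 0.31 ± 0.09 (interval 0.12 to 0.50, adjusted p = 0.0455).

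Both calls lie near the threshold. With 1 of the 6 mice left out in turn, Cpt2 passed in 1 of the 6 fits (without control female 2) and otherwise had an adjusted p between 0.0544 and 0.159, with log2 fold changes of 0.41 to 0.55. Hadha also passed in 1 of the 6 fits (without control female 3), with an adjusted p between 0.0869 and 0.145 in the others. Cpt1a had 161.0, 161.2 and 123.4 FPKM with Kdm5 vectors, against 92.5, 141.5 and 91.7 FPKM with control vectors. Its groups overlapped and it did not pass (log2 fold change 0.47 ± 0.18, adjusted p = 0.115), although it passed without control female 2 (0.68, adjusted p = 0.0207) and with library weights (0.63, adjusted p = 0.0153). The summed level of 6 sinusoidal endothelial markers was 96.1 to 97.9 FPKM with Kdm5 vectors and 73.1 to 88.2 FPKM with control vectors. That of 5 stellate and matrix markers was 138.9 to 158.1 FPKM with Kdm5 vectors and 118.6 to 132.4 FPKM with control vectors. Taken singly, 4 of the 6 endothelial markers had log2 fold changes above 0 and 2 below. Of the 5 stellate and matrix markers, 2 were above 0 and 3 below, with a median of -0.181. The part of these cells in the rise of Cpt2 and Hadha was not tested.

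With Kdm5 and AhR vectors together, Cpt1a and Hadha rose in females, by a factor of 1.60 and 1.29 against the same 3 control mice. These are 2 of the 5 genes, and 11.6% of all genes tested were called. Cpt1a had 165.9, 154.0 and 194.3 FPKM in females with Kdm5 and AhR vectors, and its values in the control females are given above. The lowest of them exceeded the highest control female, 141.5 FPKM. Its log2 fold change was 0.68 ± 0.18 (interval 0.31 to 1.05, adjusted p = 0.0249). Hadha had 146.0, 163.6 and 171.5 FPKM, again above all control females (0.37 ± 0.09, interval 0.17 to 0.56, adjusted p = 0.0191). Cpt2 had 92.5, 106.8 and 129.7 FPKM, within reach of the control females (0.22 ± 0.14, adjusted p = 0.284). With each mouse left out in turn, Cpt1a passed in 3 of 6 fits, with an adjusted p between 0.0662 and 0.109 without control female 1, without control female 3 and without mouse 3 of the females with Kdm5 and AhR vectors. Hadha passed in 2 of 6 fits, without control female 3 and without mouse 1 of the females with Kdm5 and AhR vectors, with an adjusted p between 0.0513 and 0.081 in the others.

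A score of clock genes, the mean log2(FPKM + 0.5) of genes such as Dbp and Per3 minus that of genes such as Arntl and Npas2, was 0.15 to 0.86 in the females with Kdm5 and AhR vectors. It was -1.31 to -0.76 in the females with control vectors. With this score as a covariate, Cpt1a had a log2 fold change of 0.44 (adjusted p = 0.437) and Hadha one of 0.31 (adjusted p = 0.3), and neither passed. The score ranges of these groups do not overlap, so this fit cannot tell the vectors and the score apart. Over the whole table it called 8 genes in this comparison, against 266 without the score. In the females with Kdm5 vectors the score was -1.19 to -0.75, close to that of the controls, and there Cpt2 passed with the covariate (0.47, adjusted p = 0.0446) and Hadha did not (0.31, adjusted p = 0.0509). Sinusoidal endothelial markers summed to 96.2 to 111.0 FPKM and stellate and matrix markers to 154.3 to 175.4 FPKM with Kdm5 and AhR vectors, both above the ranges of the control females. The part of collection time or of these cells was not tested beyond the covariate.

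**Figure D2:**
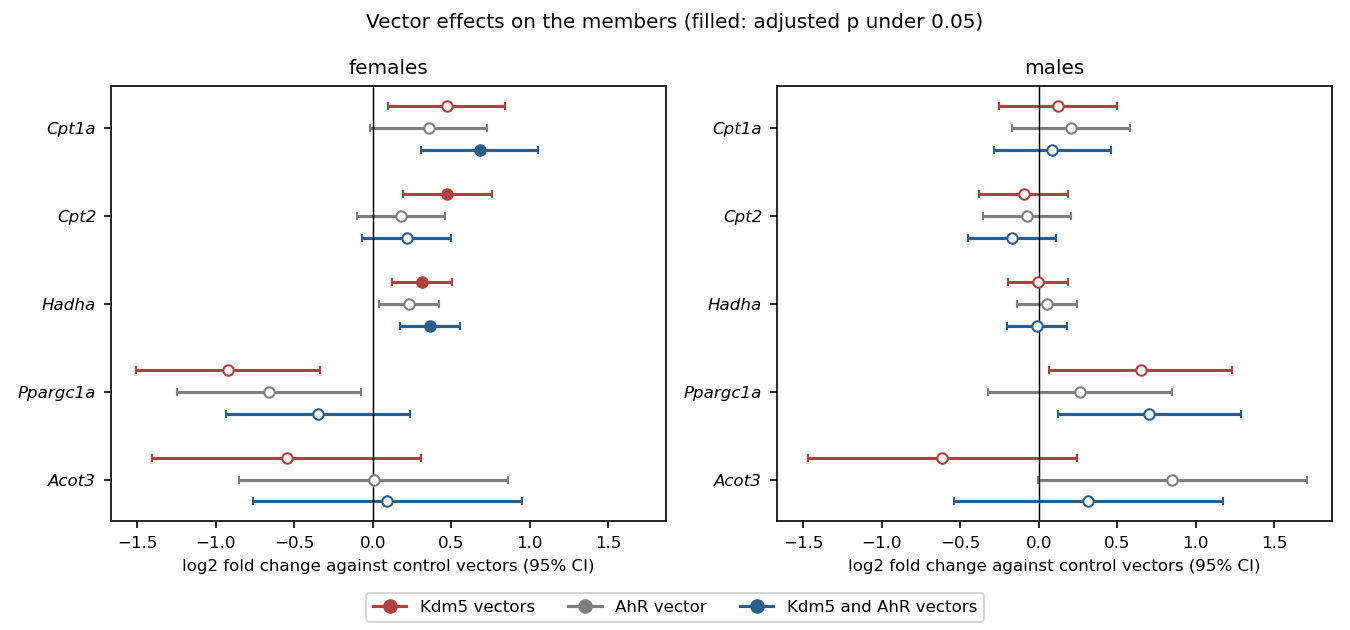
Log2 fold changes of the 5 genes against control vectors with 95% intervals, for females (left) and males (right); red is Kdm5 vectors, grey the AhR vector and blue both, and filled points passed an adjusted p of 0.05. The 4 filled points are all in females: Cpt2 and Hadha with Kdm5 vectors, and Cpt1a and Hadha with Kdm5 and AhR vectors.

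In males none of Cpt1a, Cpt2 and Hadha passed with any vectors. With Kdm5 vectors, where 1.22% of genes were called, Cpt1a had 126.7, 188.1 and 146.2 FPKM, against 147.4, 139.1 and 131.5 FPKM in males with control vectors. Cpt2 had 110.7, 109.7 and 103.6 FPKM with Kdm5 vectors, against 91.3, 124.8 and 135.0 FPKM with control vectors. Hadha had 133.4, 155.9 and 138.9 FPKM with Kdm5 vectors, against 139.5, 150.3 and 139.3 FPKM with control vectors. Groups overlapped for all 3 genes. The log2 fold changes were 0.12 for Cpt1a (interval -0.25 to 0.50), -0.10 for Cpt2 (-0.38 to 0.19) and -0.01 for Hadha (-0.20 to 0.19). With Kdm5 and AhR vectors, where 2.35% of genes were called, Cpt1a had 0.09 (interval -0.29 to 0.46), Cpt2 -0.17 (-0.45 to 0.11) and Hadha -0.01 (-0.20 to 0.18).

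Whether these effects differ between the sexes was tested directly, as the female effect minus the male effect. For the Kdm5 vectors the difference was 0.57 ± 0.19 on the log2 scale for Cpt2 (adjusted p = 0.132), 0.32 ± 0.13 for Hadha (adjusted p = 0.212) and 0.35 ± 0.25 for Cpt1a (adjusted p = 0.507), with 1.74% of genes called. For Kdm5 and AhR vectors it was 0.59 ± 0.25 for Cpt1a (adjusted p = 0.132) and 0.38 ± 0.13 for Hadha (adjusted p = 0.0778), with 5.92% of genes called. None of these passed, so a difference between the sexes in the response of the 3 enzymes was not shown. Other settings moved some of them past the threshold. For Kdm5 and AhR vectors, Hadha passed with median-of-ratios scaling (0.39, adjusted p = 0.0382) and with library weights (0.42, adjusted p = 0.0227), as did Cpt1a with library weights (0.71, adjusted p = 0.0262). For the Kdm5 vectors, Cpt2 passed with library weights (0.66, adjusted p = 0.0319).

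The AhR vector alone changed none of the 5 genes past the threshold in females, where 0.217% of genes were called. Cpt1a had 122.1, 114.0 and 181.4 FPKM with the AhR vector, against the 91.7 to 141.5 FPKM of the control females (log2 fold change 0.36 ± 0.18, adjusted p = 0.406). Hadha had 148.4, 127.8 and 162.8 FPKM with the AhR vector (0.23 ± 0.09, adjusted p = 0.281). Both overlapped their controls. In males, where 1.09% of genes were called, Cpt1a had 151.3, 175.3 and 156.4 FPKM, all above the males with control vectors, but the change was small and did not pass (0.21 ± 0.18, adjusted p = 0.682). The female effect minus the male effect passed for none of the 5 genes, with 0.565% of genes called.

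Adding 1 set of vectors to the other also gave no call. In females with Kdm5 vectors, the added AhR vector (2.09% of genes called) gave Cpt2 a log2 fold change of -0.26 ± 0.14 (adjusted p = 0.28) and Cpt1a one of 0.21 ± 0.18 (adjusted p = 0.537). In females with the AhR vector, the added Kdm5 vectors (0.696% called) gave Cpt1a 0.32 ± 0.18 (adjusted p = 0.406) and Hadha 0.14 ± 0.09 (adjusted p = 0.524). In males, 0.913% of genes were called for the added AhR vector and 3.26% for the added Kdm5 vectors, and Hadha differed by -0.01 and -0.07. The interaction of both vectors passed for none of the 5 genes in females (0.609% called) or in males (1.61% called).

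With Kdm5 vectors Ppargc1a was on opposite sides of its controls in females and males. In females with Kdm5 vectors it had 1.97, 2.00 and 1.40 FPKM, against 2.83, 6.79 and 2.79 FPKM with control vectors. In males with Kdm5 vectors it had 2.09, 2.74 and 2.63 FPKM, against 1.25, 2.03 and 1.04 FPKM with control vectors. In both sexes the ranges were apart, in females with the lower values under Kdm5 vectors and in males with the higher ones. Neither effect passed in itself, with -0.92 ± 0.28 in females (adjusted p = 0.0508) and 0.65 ± 0.28 in males (adjusted p = 0.418). The female effect passed with median-of-ratios scaling (-0.90, adjusted p = 0.0492), a pseudocount of 1 (-0.80, adjusted p = 0.0491) and the clock score (-0.97, adjusted p = 0.0251). It did not pass with library weights (-0.67, adjusted p = 0.0845) or a pseudocount of 0.1 (adjusted p = 0.0568). Nor did it pass with no filter (adjusted p = 0.0512) or with the compared groups alone (adjusted p = 0.194). With 1 mouse left out in turn it passed in 1 of 6 fits. The female effect minus the male effect was -1.57 ± 0.40 (interval -2.40 to -0.74) and passed (adjusted p = 0.0488). The level of this gene is low, and 1 control female, at 6.79 FPKM, was well above the other two. Without it the female effect was -0.54 (adjusted p = 0.174) and the difference between the sexes -1.19 (adjusted p = 0.0611).

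That difference was called in 2 of the 12 fits that left out 1 mouse, with values between -1.78 and -1.19, a negative sign in each and an adjusted p between 0.0611 and 0.137 in the 10 others. The 2 were those without male control 2 and without control female 3. With the clock score as a covariate it was -1.22 and did not pass (adjusted p = 0.146). That fit called 2 genes of the whole table for this difference, against 40 without the score. The score was 0.54 to 1.26 in males with Kdm5 vectors and -0.56 to 0.60 in males with control vectors, and with the covariate the male effect was 0.25 (adjusted p = 0.895). With Kdm5 and AhR vectors, Ppargc1a had 2.64, 2.24 and 4 FPKM in females (against control females -0.35 ± 0.28, adjusted p = 0.413). In males with Kdm5 and AhR vectors it had 2.46, 2.43 and 2.91 FPKM, above all 3 control males (0.71 ± 0.28, adjusted p = 0.211). With the clock score as a covariate the sign turned (-0.046). The score was 1.62 to 1.85 in these males, apart from that of the control males, so this fit cannot tell the vectors and the score apart. Over the whole table it called 0 genes in this comparison, against 54 without the score. With the AhR vector Ppargc1a had 2.28, 2.96 and 1.60 FPKM in females (-0.66 ± 0.28, adjusted p = 0.322) and 1.35, 1.60 and 2.53 FPKM in males (0.26 ± 0.28, adjusted p = 0.748). The interaction of both vectors in females was 1.24 ± 0.40, which did not pass (adjusted p = 0.22).

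Acot3 was not called with any vectors in either sex, and varied widely between mice of a group. Females with Kdm5 vectors had 21.9, 21.1 and 48.3 FPKM, against 28.3, 37.6 and 66.9 FPKM in females with control vectors (-0.55 ± 0.41, adjusted p = 0.451). Females with the AhR vector had 66.9, 32.9 and 32.7 FPKM, and those with Kdm5 and AhR vectors 33.6, 67.1 and 38.3 FPKM. All 4 female groups overlapped. Males with Kdm5 vectors had 3.48, 4.19 and 6.38 FPKM, against 13.3, 5.59 and 4.98 FPKM in males with control vectors (-0.61 ± 0.41, adjusted p = 0.742). Males with the AhR vector had 9.07, 14.3 and 18.6 FPKM (0.85 ± 0.41, adjusted p = 0.356). Males with Kdm5 and AhR vectors had 10.0, 9.81 and 7.66 FPKM, which lay above all males with Kdm5 vectors alone (0.93 ± 0.41, adjusted p = 0.267). The 95% interval with Kdm5 vectors ran from -1.40 to 0.31 in females and from -1.47 to 0.24 in males.

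Between the sexes Acot3 was the clear case. With control vectors it was 5.43-fold higher in females than in males (log2 fold change 2.44 ± 0.41, adjusted p = 9.97e-05), in a comparison that called 42.5% of all genes. With Kdm5 vectors the fold was 5.69 (2.51 ± 0.41, adjusted p = 9.36e-05, 36.3% of genes called). With the AhR vector it was 3.03-fold (1.60 ± 0.41, adjusted p = 0.00501, 39.2% called), and with Kdm5 and AhR vectors 4.66-fold (2.22 ± 0.41, adjusted p = 0.000142, 49.2% called). All 12 females, at 21.1 FPKM or more, were above all 12 males, at 18.6 FPKM or less, and the call held with each mouse left out and with median-of-ratios scaling. Cell type markers also differed with control vectors. The 7 Kupffer cell markers summed to 414 to 457.5 FPKM in females and 197.2 to 278.8 FPKM in males, and all 7 passed as higher in females. The 5 hepatocyte markers summed to 14445 to 16051 FPKM in females and 18891 to 21472 FPKM in males. Taken singly, 1 of these 5 passed as higher in females and 2 as lower, with a median log2 fold change of 0.009. The part of these cells in the sex differences was not tested. With the clock score as a covariate the Acot3 difference under the AhR vector was 1.91 and did not pass (adjusted p = 0.105). The score was -1.52 to -0.11 in these females and 0.92 to 1.91 in these males, so this fit cannot tell sex and score apart. It called 291 genes of the whole table there, against 902 without the score. Acot3 (chr12:84052144-84060400) lies among 5 close relatives, Acot1, Acot2, Acot4, Acot5 and Acot6, and how reads shared by near copies were counted is not given in the sources used here, so its level is uncertain to that extent. Acot2, the other member of this cluster in the table, was also higher in females with Kdm5 vectors (1.11 ± 0.27, adjusted p = 0.00313), with the AhR vector (0.83, adjusted p = 0.0195) and with both (0.98, adjusted p = 0.00431), and with control vectors had 0.32 ± 0.27 (adjusted p = 0.347).

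Ppargc1a was higher in females than in males with control vectors, at 4.14 ± 2.30 FPKM against 1.44 ± 0.522 FPKM (log2 fold change 1.18 ± 0.28, adjusted p = 0.00215, called with each mouse left out). Under the other 3 vector settings it was not called, with log2 fold changes of -0.39 with Kdm5 vectors, 0.26 with the AhR vector and 0.13 with both. With the clock score as a covariate these were 0.47, 1.22 and 0.63, so that the sign with Kdm5 vectors turned, and none passed. With Kdm5 vectors the score was -1.19 to -0.75 in females and 0.54 to 1.26 in males. The ranges of the sexes were apart under the other settings too, so this fit cannot tell sex and score apart. Cpt1a, Cpt2 and Hadha with control vectors had log2 fold changes of -0.39 (adjusted p = 0.0851), -0.30 (adjusted p = 0.0756) and -0.20 (adjusted p = 0.079) in females against males. Hadha was 116.6 to 134.3 FPKM in these females and 139.3 to 150.3 FPKM in these males, ranges that were apart. The median of all genes in this comparison was 0.15. Median-of-ratios scaling brings that median to -0.000278, and the 3 genes then had -0.55 (adjusted p = 0.0155), -0.46 (adjusted p = 0.00936) and -0.36 (adjusted p = 0.00128). With library weights on the deposited scale they passed too, at -0.50 (adjusted p = 0.0134), -0.39 (adjusted p = 0.0179) and -0.23 (adjusted p = 0.0375). Acot3 and Ppargc1a passed under both settings. With Kdm5 vectors, Cpt2 was 117.7 to 143.0 FPKM in females and 103.6 to 110.7 FPKM in males, ranges that were apart in the other direction (0.27 ± 0.14, adjusted p = 0.132).

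Other genes of the pathway were read from 9 lists with 125 genes, of which 64 were in the table and tested. With Kdm5 vectors in females, 6 of the 64 (9.38%) rose and 1 (1.56%) fell, beside 3.39% and 3.48% of all genes. Of the 64, 40 had a log2 fold change above 0, with a median of 0.10, beside 46.6% of all genes tested above 0 and a median of -0.02. Gpd1, the cytosolic glycerol-3-phosphate dehydrogenase, rose (0.63 ± 0.14, adjusted p = 0.0122), and so did Cyp8b1, the sterol 12-alpha-hydroxylase of bile acid synthesis (1.64 ± 0.38, adjusted p = 0.0142). In the peroxisomal list 2 of 14 genes rose, Acox2 (0.45, adjusted p = 0.00826) and Hsd17b4 (0.43, adjusted p = 0.0142), and Hacl1, a lyase of peroxisomal alpha-oxidation, fell by 0.61 (adjusted p = 0.0478). Ucp2, a mitochondrial carrier, rose as well (0.57). Ucp2, Acox2 and Hsd17b4 were named after their values were seen. None of the 9 tested genes of the mitochondrial beta-oxidation list passed, with 7 of 9 above 0 and a median of 0.10. The endothelial and stellate marker sums given above were higher in these same females, although 2 of the 6 endothelial and 3 of the 5 stellate and matrix markers had log2 fold changes below 0. The part of these cells was not tested.

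**Figure D3:**
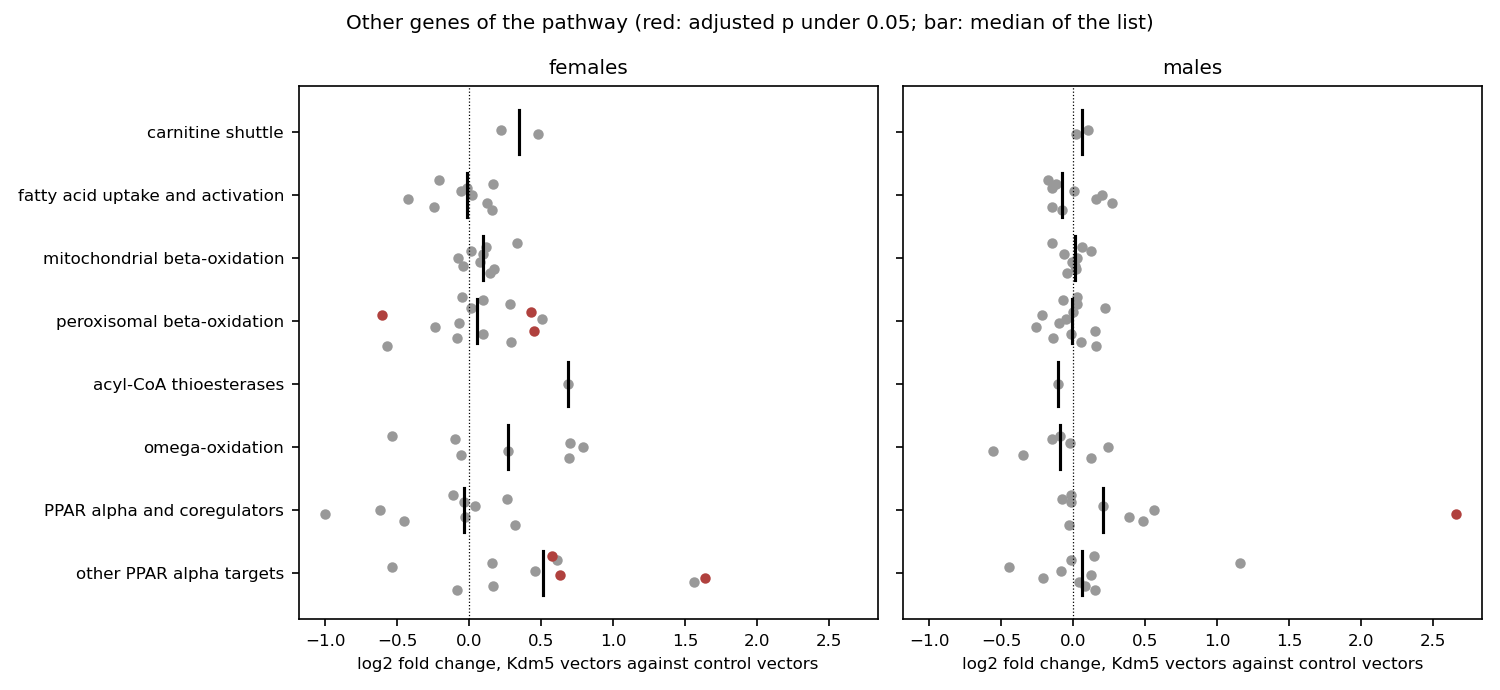
Log2 fold changes of 61 other pathway genes from 8 of the lists with Kdm5 vectors against control vectors in females (left) and males (right), 1 point per gene by list; vertical bars are list medians and red points passed an adjusted p of 0.05. Females have 6 red points, 5 of them above 0, and males have 1, Lpin1.

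With Kdm5 and AhR vectors in females, 7 of the 64 (10.9%) rose and none fell, beside 7.79% and 3.78% of all genes, with 48 above 0 and a median of 0.15, beside 52.6% of all genes above 0 and a median of 0.02. Gpd1 (0.80), Ucp2 (0.57) and Acox2 (0.53) were among them. With the clock score as a covariate none of the 64 passed there, and 8 genes of the whole table did, against 266 without it. With Kdm5 vectors alone, 6 of the 7 calls passed with the covariate, all but Hacl1 (adjusted p = 0.0534). In males with Kdm5 vectors 1 of the 64 passed. It was Lpin1, which encodes a phosphatidate phosphatase (2.66 ± 0.50, adjusted p = 0.0111), and the female effect minus the male effect of Lpin1 was -3.66 ± 0.71 (adjusted p = 0.021). With the clock score as a covariate neither passed (2.30, adjusted p = 0.194, and -3.34, adjusted p = 0.0786). Over the whole table that fit called 0 genes with Kdm5 vectors in males, against 28 without the score. For the female effect minus the male effect it called 2, against 40. For Kdm5 and AhR vectors the female effect minus the male effect passed for 8 of the 64. Of these, 6 (9.38% of the 64) were positive and 2 (3.12%) negative, beside 4.52% and 1.39% of all genes. All 8 also passed with the clock score as a covariate. With control vectors 8 of the 64 (12.5%) were higher and 15 (23.4%) lower in females than in males, beside 30.8% higher and 11.6% lower of all genes. The omega-hydroxylases Cyp4a12a (-6.47) and Cyp4a12b (-6.25) were the lowest in females, and Abcd2, a peroxisomal fatty acid transporter, was higher (2.16). With Kdm5 vectors 9 were higher and 11 lower (24.8% and 11.5% of all genes). With the AhR vector 8 were higher and 15 lower (24.6% and 14.6% of all genes), and with Kdm5 and AhR vectors 16 were higher and 8 lower (38% and 11.2% of all genes).

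The other comparisons called few of the 64. The AhR vector called none in females and 1 in males, Acacb, the acetyl-CoA carboxylase whose product inhibits CPT1 (-0.58 ± 0.14, adjusted p = 0.0472). In males with Kdm5 and AhR vectors, Lpin1 (2.24, adjusted p = 0.0218) and Hnf4a, a hepatocyte transcription factor (0.54, adjusted p = 0.0101), rose and Acacb fell by 0.58 (adjusted p = 0.0276). Acox2 rose when Kdm5 vectors were added to the AhR vector in females (0.54, adjusted p = 0.00553), while the added AhR vector called none there. In males Acaca, the other acetyl-CoA carboxylase, fell by 0.59 with the added Kdm5 vectors (adjusted p = 0.0331) and Acacb by 0.66 with the added AhR vector (adjusted p = 0.0334). The interaction passed for none in females and for Foxo1 in males (-1.01, adjusted p = 0.0407). The difference of the AhR effect between the sexes passed for none. With the clock score as a covariate, Acaca was the sole call among these that passed (adjusted p = 0.0419). Lpin1 (1.57, adjusted p = 0.571), Hnf4a (0.30, adjusted p = 0.563) and Acacb (-0.64, adjusted p = 0.372) did not pass with Kdm5 and AhR vectors in males, nor Acox2 with the added Kdm5 vectors in females (0.59, adjusted p = 0.113). In both comparisons the score ranges of the groups do not overlap, so this fit cannot tell the vectors and the score apart. It called 0 genes of the whole table in each, against 54 in the males and 16 in the females without the score.

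Hadhb, the beta subunit of the trifunctional protein, lies head to head with Hadha. Their annotated starts are 273 bases apart on opposite strands, and their 300-base windows share 228 bases, so the Hadha sequence printed above is in large part the Hadhb promoter read from the other side. With Kdm5 vectors Hadhb had 229.7, 186.5 and 201.2 FPKM in females, against 161.5, 161.6 and 165.3 FPKM with control vectors. The groups were apart but the change did not pass (0.33 ± 0.11, adjusted p = 0.0696). With Kdm5 and AhR vectors it had 183.1, 203.6 and 232.3 FPKM (0.33 ± 0.11, adjusted p = 0.0513).

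Likeness of pattern was measured as Pearson's r over the 24 livers on log2(FPKM + 0.5), after the mean of each sex was taken away, and is given with no test. The points share libraries, vector groups and scaling. For Hadha the most alike of all genes tested was Hadhb (r = 0.863, Spearman's rho = 0.902), followed by Atp9a and Rtn4ip1 (r = 0.838 and 0.824). For Cpt1a they were Abat, Acaa1a and Dlst (r = 0.923, 0.887 and 0.871). For Cpt2 they were Ehhadh, Oplah and Creb3l3 (r = 0.85, 0.822 and 0.821). For Ppargc1a they were Lpin2, Klf13 and Lpin1 (r = 0.818, 0.785 and 0.764), and for Acot3 Socs2, App and Hacl1 (r = 0.798, 0.731 and 0.726). Without the 2 livers farthest from the member's median, all 15 values stayed between 0.697 and 0.892. Among the 5 genes themselves, Cpt1a and Hadha were the most alike (r = 0.687; 0.677 in females and 0.734 in males). Cpt1a and Cpt2 moved together in females (r = 0.6) and not in males (r = -0.318), and the difference between those values was not tested.

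**Figure D4:**
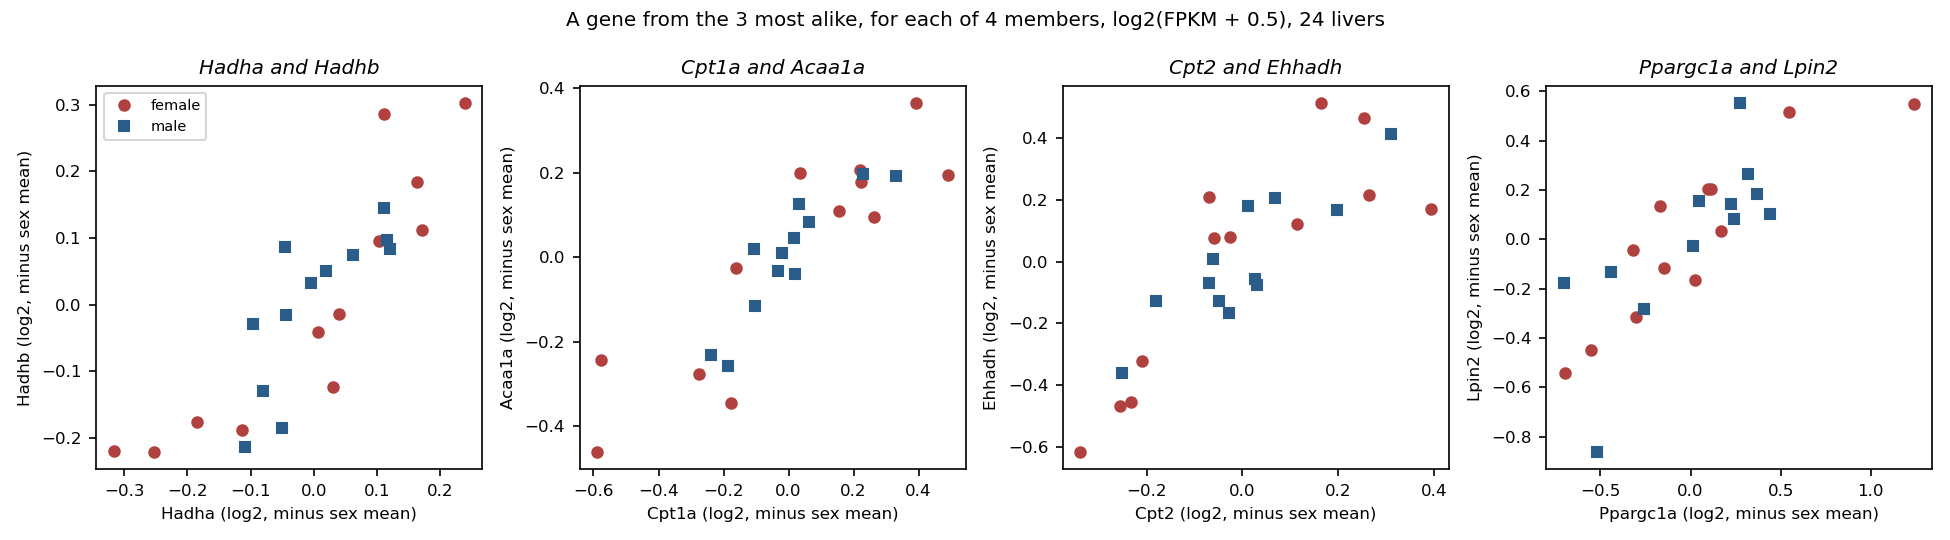
Log2 levels of 4 members (x) and, for each, a gene among its 3 most alike (y) in 24 livers, each minus the mean of its sex; red circles are females and blue squares males. Points rise together in every panel, with r = 0.863 for Hadha and Hadhb, 0.887 for Cpt1a and Acaa1a, 0.85 for Cpt2 and Ehhadh and 0.818 for Ppargc1a and Lpin2.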

How the data were processed

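Per the file headers, the deposited values are FPKM per gene and library, scaled by the authors to transcript length and mapped fragments and rounded to 2 decimals. HISAT, Bowtie2 and GRCm38.p6 are named in the submitters' processing notes. Strand handling and read depth are not stated there, nor is how the 2372 genes were chosen, so shares and adjusted p-values hold within this table. Groups came from the labels, and replicates were numbered in sample order. The p-values measure the spread between these samples, since the labels do not say how mice were related. log2(FPKM + 0.5) was tested with limma 3.58.1 in R 4.3.3 (1 mean per group, 24 libraries, 16 residual degrees of freedom, intensity trend, robust moderation). A gene needed 1 FPKM or more in 3 libraries or more, which left out 73. P-values were adjusted by Benjamini-Hochberg over 2299 genes in each of 19 comparisons (threshold 0.05). Fold changes on this scale understate those of low genes. The test was tried on simulated data. Genes, lists and tests were chosen with earlier results of these data known. Named pathway genes are, in each comparison, up to 4 that passed with the largest change, and for each member the 3 most alike genes. A gene that the rule takes is not reported here. Alternatives were another scaling, other filters and pseudocounts, library weights, a clock score covariate, the compared groups alone, and each library left out. No pair of libraries was identical. Promoters are from RefSeq.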

Additional observations from a re-analysis of the deposited data

Results flagged for a closer look

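The effect of the Kdm5 vectors on Ppargc1a differed between females and males in a test of the difference itself. The log2 fold change in females minus that in males was -1.57 ± 0.40 (limma, adjusted p = 0.0488), with all 3 females with Kdm5 vectors below all 3 control females and all 3 males with Kdm5 vectors above all 3 control males. Neither sex passed in itself. The call is fragile and held in 2 of 12 fits that left out 1 mouse. It was lost with the clock score (adjusted p = 0.146), a pseudocount of 1 (adjusted p = 0.052) and the compared groups alone (adjusted p = 0.113).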

How the results depend on the processing

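No paired analysis was possible because the labels give no replicate numbers that join mice across groups. Of 1461 log2 fold changes of the 5 genes under the alternatives, 38 lost and 21 gained a call, and all the others kept their side of the threshold. Of the 1461, 83 changed sign, and all of these passed in neither fit. Among the 83 was Ppargc1a with Kdm5 and AhR vectors in males, at -0.046 with the clock score as a covariate. The number of the 5 genes called was the same under every alternative in 12 of 19 comparisons. For Kdm5 vectors in females (2) it was 3 with median-of-ratios scaling, a pseudocount of 1 or library weights, 0 with the compared groups alone, and 0 to 2 with a mouse left out. For Kdm5 and AhR vectors in females (2) it was 0 with the clock score, 0 with the groups alone, and 0 to 2 with a mouse left out. For females against males with control vectors (2) it was 5 with median-of-ratios scaling, 5 with library weights, 1 with the stricter filter, which drops Ppargc1a, and 2 to 4 with a mouse left out (4 without control female 2). With the AhR vector (1) it was 0 with the clock score, and with Kdm5 and AhR vectors (1) it was 2 with library weights. For the sex difference of the Kdm5 effect (1) it was 0 with the stricter filter, which drops Ppargc1a, 0 with a pseudocount of 1, 0 with the clock score, 0 with the groups alone, 2 with library weights, and 0 to 1 with a mouse left out. For that of Kdm5 and AhR vectors (0) it was 1 with the scaling and 2 with library weights. Over the whole table, Kdm5 vectors in females called 158 genes, against 1 with the groups alone and 331 with library weights, and Kdm5 and AhR vectors 266, against 8 with the clock score and 594 with library weights. The cause was not tested where it is not named here. With 3 mice a group and no known depth, smaller changes than those called cannot be told from none.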
